A study of Mus musculus with 49 samples.

Results

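The genes described here are the matrix metalloproteinases (Mmp), their tissue inhibitors (Timp), the membrane-bound disintegrin proteases (Adam), the secreted disintegrin proteases with thrombospondin motifs (Adamts) and their protease-dead relatives (Adamtsl). They were taken by symbol, as every gene named Mmp, Timp, Adam, Adamts or Adamtsl followed by a number, and 83 of the 22869 gene symbols measured met that rule. The 83 are 23 Mmp, 4 Timp, 32 Adam, 19 Adamts and 5 Adamtsl genes. A mean normalized value of at least 20 in a group was reached by 58 of them, and 25 stayed below it in every group. The members just inside that limit were Adamts19 (highest group mean 20.8), Adamts4 (21.4) and Adamts20 (23.6), and those just outside were Mmp16 (16.8), Adamts17 (15) and Adam18 (14.4).

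White fat of C57BL/6 and 129S1/SvImJ mice, both inbred strains, was profiled by RNA-seq in 43 libraries that fall into 10 groups. Epididymal white fat (eWAT), which is visceral, was taken from mice on standard chow, whose age the labels do not give (5 libraries per strain). In the drug experiment, mice aged 6 to 16 weeks ate a low fat diet and then, until 18 weeks, the same diet without drug or with 36 mg rosiglitazone per kg of diet (4 libraries per strain and diet, all eWAT). Other mice, whose age the labels do not give, ate low fat diet for 12 weeks. From these, eWAT (5 C57BL/6 and 4 129S1/SvImJ libraries) and inguinal white fat (iWAT, which is subcutaneous, 4 libraries per strain) were taken. The control diet mice of the drug experiment, on low fat diet from 6 to 18 weeks of age, also ate it for 12 weeks. Rosiglitazone is an antidiabetic drug that activates PPARG, the nuclear receptor at the head of the fat cell programme. The comparisons ask how the fat of the strains differs, how it responds to the drug and how the depots differ.

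Fat cells sit in a basement membrane and a fibrillar matrix that is remodelled as the tissue grows, shrinks or is invaded by immune cells. Mmp enzymes cut collagens, gelatin and other matrix proteins, most of them secreted as inactive precursors, and Timp proteins block their active site. Adam enzymes sit in the cell membrane and release growth factors, cytokines and receptors from the cell surface, while Adamts enzymes trim procollagens and cleave proteoglycans such as versican and aggrecan. Many of these genes are expressed by stromal cells and macrophages of fat as well as by adipocytes.

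Values are the authors' normalized values, whole numbers with a floor of 1, and the depth of the libraries is unknown. Adipocyte markers (5 genes) summed to at least 81092 in every library but 1, and that library, 129S1/SvImJ chow replicate 2, had 15147 and held 130326 of summed epididymal epithelium markers (6 genes). Replicate 1 of the same group had 33990 of the latter, and the other chow libraries had 25 to 86. Lymphocyte markers (5 genes) summed to 1425 in C57BL/6 iWAT replicate 4 and to 2999 and 908 in 129S1/SvImJ iWAT replicates 1 and 4, against 16 to 110 in the eWAT groups. Values in the 4 iWAT libraries of C57BL/6 were in coarser steps, with 32.1% to 37.7% of transcripts at the floor. Nothing in the labels ties each replicate to its own mouse, and p-values therefore cover only the spread seen among these libraries, which may be technical. Throughout, a gene is called when its Benjamini-Hochberg adjusted p from limma, over all 22869 symbols, is under 0.05, and fold changes are on the log2(value + 1) scale, which understates changes of low genes. The tissue was taken whole, so fewer cells of a type and less RNA per cell cannot be told apart.

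Per kilobase of transcript, 3 of the 4 inhibitors were among the highest members. In C57BL/6 eWAT after 12 weeks of low fat diet, the normalized value per kilobase was 560 for Timp3, 459 for Adam15, 343 for Timp2, 343 for Timp4, 278 for Adamts5, 238 for Adam9 and 160 for Mmp19. Timp3 binds the matrix and also inhibits several Adam and Adamts enzymes, Timp2 takes part in activating pro-MMP2 at the cell surface, and Timp4 is the inhibitor typical of fat and heart. Timp1 stood far lower, at 11.6 per kilobase, and Mmp2, the 72 kDa gelatinase, at 69.5. These are levels per length in 1 group, and each library's own value stands beside the results that follow.

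**Figure D1:**
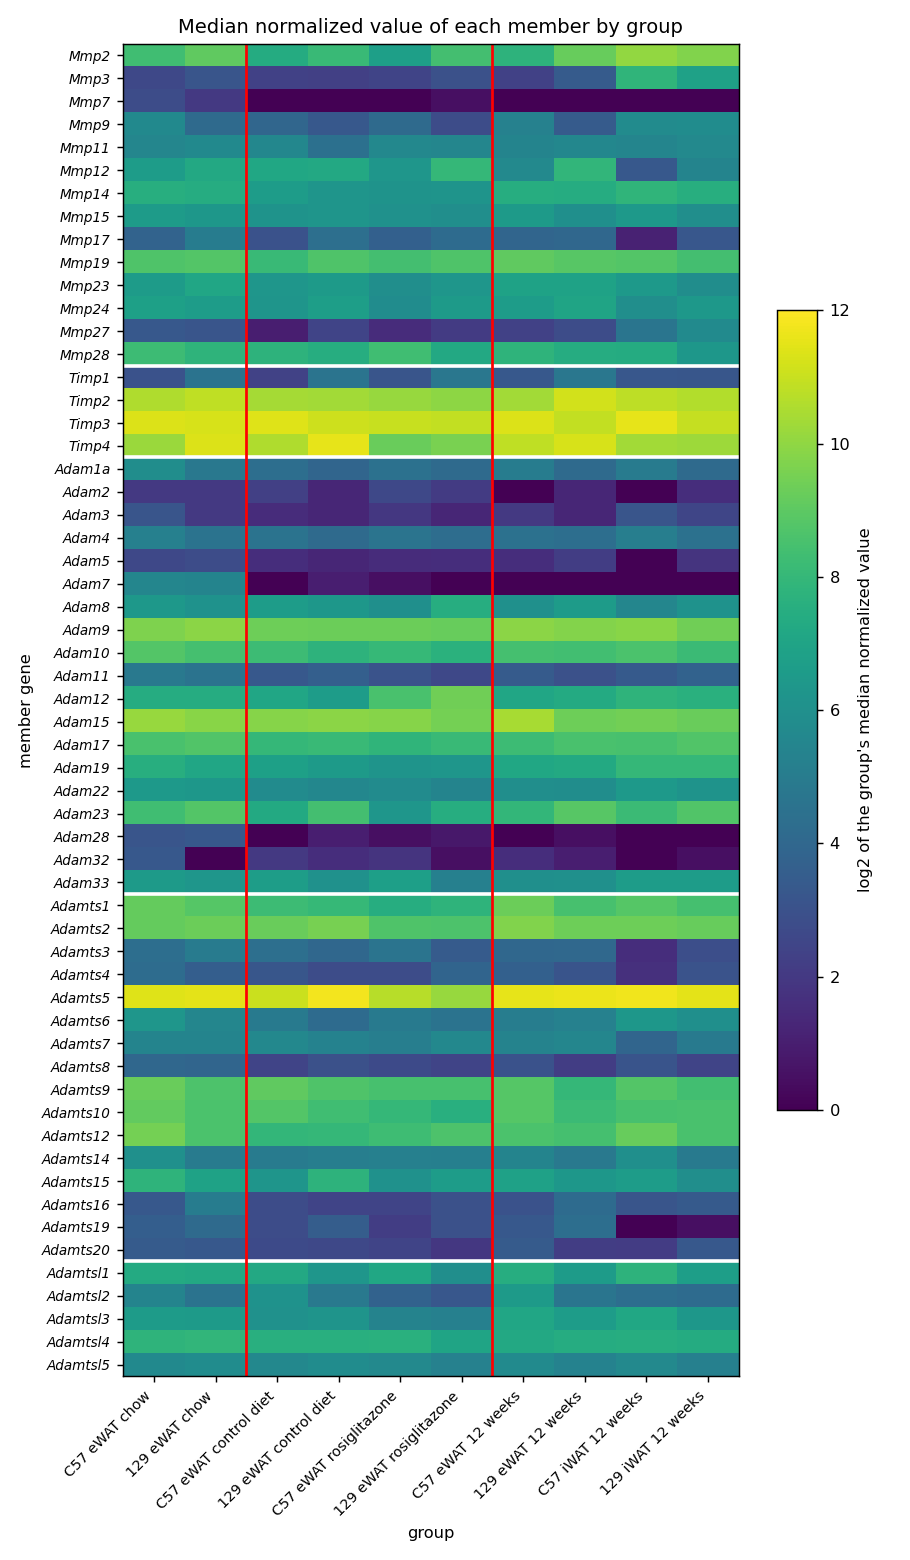
Heat map of the 58 members with a group mean of at least 20 (vertical axis, by family) in the 10 groups (horizontal axis), coloured by log2 of the group's median normalized value. Red lines part the 3 experiments normalized separately, between which levels are not comparable, and colours also depend on transcript length. Mmp2, Mmp3 and Mmp27 are brighter in the iWAT columns, and Adam12 is brighter in both rosiglitazone columns.

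Rosiglitazone raised 1 protease and lowered an inhibitor in both strains. Adam12, a membrane protease that is active in growth factor shedding and marks remodelling tissue, rose. Timp4 fell, and so did Adam23, Adamts2, Adamts10 and Adamtsl3. These 6 members were called in the same direction in both strains, which is 54.5% of the 11 called in C57BL/6 and 66.7% of the 9 called in 129S1/SvImJ. The responses of the strains share no library. The matching overlap over all genes was not counted, so these 2 shares do not set the members apart from other genes. Across all genes 2.43% were called in C57BL/6 and 5.51% in 129S1/SvImJ, against 13.3% and 10.8% of the members. Lower on the drug were 9 of the 11 (0.901% of all genes were called lower, 1.53% higher) and 6 of the 9 (2.56% of all genes lower, 2.96% higher). The median log2 fold change over all 83 members was -0.02 in C57BL/6 and -0.15 in 129S1/SvImJ, and 0.00 over all genes in both.

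Adam12 normalized values in C57BL/6 were 131, 140, 194 and 95 on control diet and 407, 339, 453 and 338 on rosiglitazone. In 129S1/SvImJ they were 112, 87, 233 and 87 on control diet and 619, 745, 753 and 606 on the drug. Every treated library lay above every control library of its strain, and the 4 treated 129S1/SvImJ libraries were the highest of the 16. The log2 fold change was 1.48 ± 0.27 (SE) in C57BL/6 (n = 4 per group, limma adjusted p = 0.007) and 2.50 ± 0.27 in 129S1/SvImJ (limma adjusted p = 3.21e-05). In the authors' deposited table the Adam12 log2 fold changes were 1.47 and 2.45.

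Timp4 values in C57BL/6 were 1573, 1503, 1283 and 2057 on control diet and 456, 640, 880 and 570 on rosiglitazone. The 129S1/SvImJ values were 2849, 3167, 1792 and 3462 without the drug and 733, 788, 471 and 1092 with it. Treated and control libraries did not overlap in either strain, and treated libraries of the strains overlapped each other. Timp4 fell by 1.35 on the log2 scale in C57BL/6 (SE 0.27, limma adjusted p = 0.0142) and by 1.89 in 129S1/SvImJ (SE 0.27, limma adjusted p = 5.37e-04). Without C57BL/6 rosiglitazone replicate 4 the C57BL/6 adjusted p from limma was 0.0569.

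Adam23, a catalytically inactive family member that binds integrins and is best known from neurons, was 205, 153, 164 and 130 on control diet and 69, 81, 77 and 102 on rosiglitazone in C57BL/6. Its 129S1/SvImJ values were 366, 326, 442 and 299, and 173, 181, 213 and 176 on the drug. The treated libraries lay below the controls in both strains, with log2 fold changes of -0.97 ± 0.15 (limma adjusted p = 6.70e-04) and -0.93 ± 0.15 (limma adjusted p = 3.53e-04). The treated 129S1/SvImJ values were within or near the range of untreated C57BL/6.

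Among the secreted enzymes, Adamts2, a procollagen N-propeptidase, went from 695, 580, 632 and 597 to 335, 437, 408 and 424 in C57BL/6. In 129S1/SvImJ it went from 930, 701, 780 and 720 to 448, 357, 414 and 401. The groups did not overlap, and Adamts2 fell by 0.65 (SE 0.11, limma adjusted p = 0.00155) and 0.94 (SE 0.11, limma adjusted p = 8.44e-06) on the log2 scale. Adamts10, which binds fibrillin microfibrils, went from 402, 533, 464 and 426 to 243, 315, 245 and 260 in C57BL/6, and from 345, 328, 285 and 312 to 180, 196, 246 and 145 in 129S1/SvImJ. Its log2 fold changes were -0.78 ± 0.13 and -0.75 ± 0.13 (limma adjusted p = 0.00203 and 0.00127). Adamtsl3, a secreted relative without a protease domain, went from 61, 66, 70 and 77 to 35, 39, 48 and 43 in C57BL/6 and from 70, 77, 72 and 85 to 37, 46, 28 and 39 in 129S1/SvImJ. All 3 genes were lower in each of the 8 treated libraries than in any control library of the same strain.

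Adamts5, the aggrecanase and versicanase that had the highest level per kilobase of the Adamts genes, was called in 129S1/SvImJ and not in C57BL/6. Its 129S1/SvImJ values were 3264, 3732, 3382 and 4322 on control diet and 1066, 950, 1200 and 1256 on rosiglitazone. In C57BL/6 they were 2472, 1806, 2391 and 1258, and 988, 1807, 1610 and 1737 on the drug, so that the C57BL/6 groups overlapped. Adamts5 fell by 1.72 in 129S1/SvImJ (SE 0.21, limma adjusted p = 6.86e-05), and its C57BL/6 log2 fold change of -0.36 was not called (limma adjusted p = 0.491). The difference between these responses was -1.36 ± 0.29 and did not pass (limma adjusted p = 0.0802, range over the other settings 0.00543 to 0.195). It was called with array weights (adjusted p = 0.0304), which weigh libraries by their quality.

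**Figure D2:**
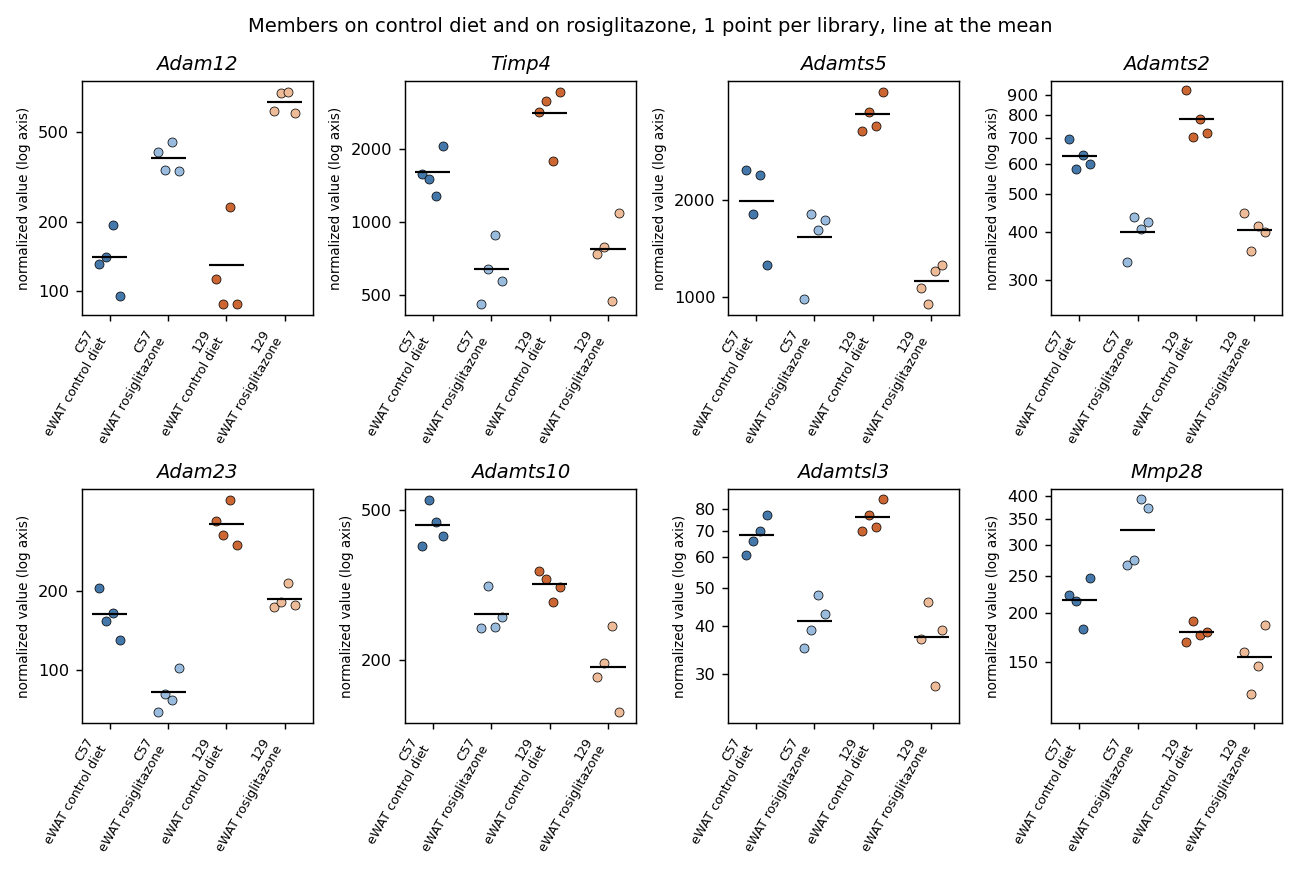
Normalized values (vertical axis, logarithmic) of 8 members in the 4 groups of the drug experiment, with 1 point per library and a line at the mean. Adam12 points of both strains are higher on rosiglitazone and those of Timp4, Adamts2, Adam23, Adamts10 and Adamtsl3 lower, while Adamts5 separates by diet in 129S1/SvImJ and Mmp28 in C57BL/6.

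The other members called in C57BL/6 alone were Adamtsl2 (log2 fold change -2.08 ± 0.46, limma adjusted p = 0.023), which binds latent TGF-beta binding protein, Adamts9 (-0.52 ± 0.12, 0.0281), Timp3 (-0.48 ± 0.12, 0.0313), Adam19 (-0.65 ± 0.17, 0.0459) and the epithelial metalloproteinase Mmp28 (0.58 ± 0.14, 0.0286). Mmp28 values were 223, 215, 182 and 247 on control diet and 266, 274, 394 and 374 on the drug. Adamtsl2 went from 126, 64, 76 and 31 to 12, 22, 14 and 13. In 129S1/SvImJ alone, Adamts12 (0.60 ± 0.14, limma adjusted p = 0.0144) and the stromelysin Mmp11 (0.92 ± 0.25, 0.0337) rose. The lists of the strains do not show that the strains differ, since Timp3 (-0.17, adjusted p = 0.507) and Adamtsl2 (-1.26, adjusted p = 0.144) had the same sign in 129S1/SvImJ. No member passed the test of the difference between the strains' responses by limma, where 0.21% of all genes were called (0.0743% higher in 129S1/SvImJ and 0.136% lower). At an unadjusted p under 0.05, 14 members and 2265 of all genes stood out in it. After Adamts5, the members with the smallest p were Mmp28 (-0.81, adjusted p = 0.107) and Mmp2 (0.80, adjusted p = 0.301), and Adam12 had 1.02 ± 0.38 (adjusted p = 0.36).

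The C57BL/6 calls rested on the spread shared over all 16 libraries of the drug experiment. When limma was fitted to the 8 C57BL/6 libraries alone, none of the 11 passed (adjusted p 0.0639 for Adam12 to 0.302 for Timp3), with 73 genes called in all and 15 members at an unadjusted p under 0.05. Fitted to its own 8 libraries, the 129S1/SvImJ response gave 6 called members. The sum of adipose progenitor and fibroblast markers (6 genes) was lower on the drug as well. Their summed value was 5211 to 6815 on control diet and 3647 to 4619 on rosiglitazone in C57BL/6, and 5144 to 6229 and 3754 to 4851 in 129S1/SvImJ, without overlap. Dpt was the 1 marker of the 6 called lower in C57BL/6, and Dpt and Dcn were the 2 in 129S1/SvImJ. Dcn is the largest part of the sum, and not every marker fell. Ly6a in C57BL/6 was 313, 320, 291 and 328 on control diet and 260, 348, 363 and 281 on the drug. Pdgfrb in 129S1/SvImJ was 321, 301, 325 and 265, and 348, 314, 414 and 285 on the drug. Adipocyte markers summed to 87450 to 107664 on control diet and 109197 to 124029 on the drug in C57BL/6, and to 92548 to 104470 and 133249 to 142386 in 129S1/SvImJ, without overlap. Cidec was called higher in both strains and Fabp4 in 129S1/SvImJ, so 1 and 2 of the 5. Macrophage markers (7 genes) summed to 1911 to 3494 and 1110 to 2403 in C57BL/6, and to 2578 to 3583 and 1610 to 2622 in 129S1/SvImJ, with Cd163 called lower in both strains. No marker of these lists was at the floor in these groups, and their part in the members' responses was not tested.

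**Figure D3:**
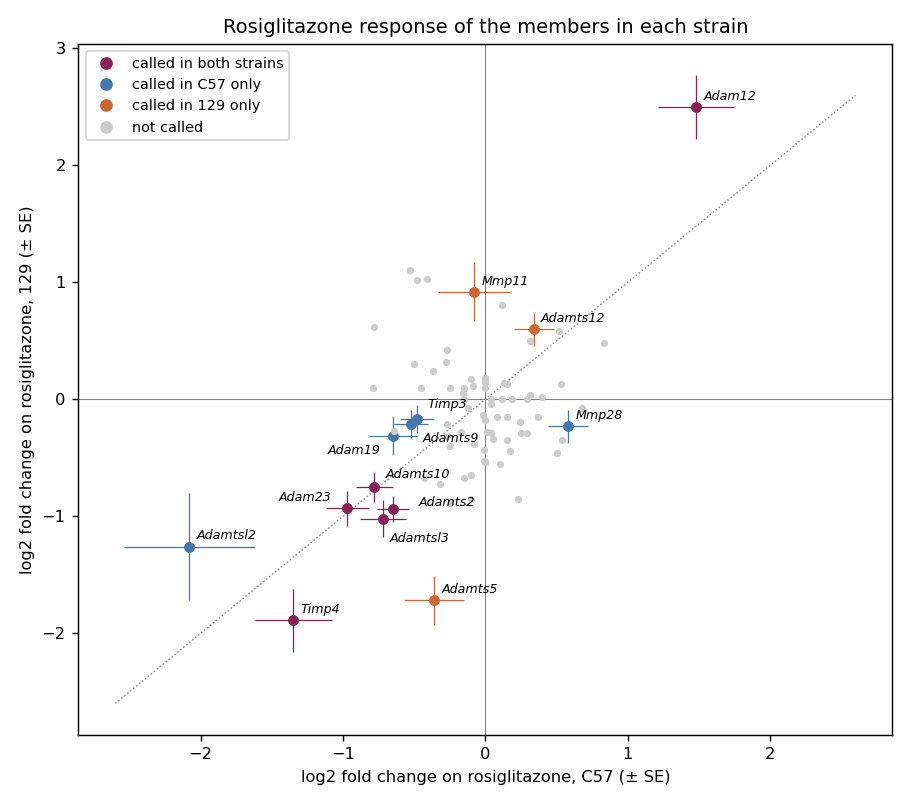
Log2 fold change of each member on rosiglitazone in C57BL/6 (horizontal axis) against 129S1/SvImJ (vertical axis), with SE bars and names for the members called in either strain and a dotted line of equal change. Adam12 is the 1 named member far up and to the right, at 1.48 and 2.50, and Adamts5 lies below the line at -0.36 and -1.72.

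In eWAT outside the chow experiment, Mmp2, Adam23, Adamts10 and Adamtsl1 were called between the strains each time. On control diet 15 of the 83 members were called, 10 higher and 5 lower in 129S1/SvImJ, which is 18.1% against 17.5% of all genes (10% higher and 7.5% lower). After median centring the split was 7 higher and 7 lower. On rosiglitazone diet 9 were called (3 higher and 6 lower, 10.8% against 10.7% of all genes, of which 5.45% were higher and 5.23% lower), and after 12 weeks of low fat diet 21 (7 higher and 14 lower, 25.3% against 21.7% of all genes, with 11.6% higher and 10.2% lower). These shares are near the background, so what follows describes single genes. Adam23 and Mmp2 were higher in 129S1/SvImJ in all 3 comparisons, and Adamts10 and Adamtsl1, 2 secreted matrix proteins of the ADAMTS superfamily, were lower in all 3. Adamtsl1 overlapped on control diet (C57BL/6 72, 217, 184 and 124, 129S1/SvImJ 69, 83, 84 and 77), a call lost under 4 of 17 alternatives. Adamts10 overlapped on rosiglitazone (243, 315, 245 and 260 against 180, 196, 246 and 145), a call lost under 5 of 17. The control diet and rosiglitazone libraries, which do not overlap, shared 5 calls of the same direction (33.3% of 15 and 55.6% of 9). Shared calls over all genes were not counted, so these shares have no background beside them.

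Mmp2 values on control diet were 210, 96, 167 and 170 in C57BL/6 and 327, 282, 261 and 284 in 129S1/SvImJ. On rosiglitazone they were 92, 127, 96 and 127 in C57BL/6 and 469, 297, 399 and 282 in 129S1/SvImJ. After 12 weeks the eWAT values were 214, 176, 263, 221 and 195 against 598, 640, 440 and 595. The strains did not overlap in any of these 3 sets, and the log2 fold changes were 0.89 ± 0.20 (limma adjusted p = 0.00384), 1.69 ± 0.20 (1.30e-05) and 1.40 ± 0.15 (9.38e-04). Mmp2 cleaves basement membrane collagen and denatured collagen.

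Adam23 was higher in 129S1/SvImJ by 1.13 ± 0.15, 1.18 ± 0.15 and 0.93 ± 0.19 in the same order (limma adjusted p = 1.91e-05, 1.45e-05 and 0.0116). Its 12-week eWAT values were 199, 285, 249, 239 and 285 in C57BL/6 and 634, 536, 375 and 403 in 129S1/SvImJ. No library of 129S1/SvImJ lay as low as the highest of C57BL/6 in any of the 3.

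The inhibitors differed by gene. Timp1, the inducible inhibitor, was 9, 3, 14 and 2 in C57BL/6 on control diet and 19, 32, 40 and 15 in 129S1/SvImJ (1.98 ± 0.43, limma adjusted p = 0.00265). After 12 weeks its eWAT values were 10, 11, 9, 10 and 11 against 36, 38, 20 and 21 (1.35 ± 0.21, limma adjusted p = 0.00433). It lies low in every group, but 129S1/SvImJ was above C57BL/6 in each of these libraries, and on rosiglitazone the difference of 1.23 was not called (adjusted p = 0.0735). Timp2 was 1291, 1181, 1390, 1340 and 1168 in C57BL/6 and 2218, 2350, 1859 and 2551 in 129S1/SvImJ after 12 weeks (0.81 ± 0.10, limma adjusted p = 0.00166). Timp3 was lower in 129S1/SvImJ on control diet (-0.36 ± 0.12, adjusted p = 0.0366) and after 12 weeks (-0.44 ± 0.11, 0.0239). Timp4 on control diet came to 0.79 (adjusted p = 0.0554) and was not called.

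Adam15 had the smallest p of the members after 12 weeks in eWAT. Its values were 1334, 1240, 1468, 1390 and 1399 in C57BL/6 and 589, 637, 684 and 778 in 129S1/SvImJ (-1.03 ± 0.09, limma adjusted p = 4.14e-04). The protein, metargidin, binds integrins and is prominent in endothelium. On control diet and on rosiglitazone Adam15 was not called.

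Further members lower in 129S1/SvImJ after 12 weeks were Adamtsl2 (-1.87), Mmp15 (-0.66), Adamtsl1 (-0.82), Adamts14 (-0.58), Adamts9 (-0.83), Adamts10 (-0.68), Mmp9 (-1.30) and Adamts1 (-0.82), with a largest limma adjusted p of 0.0337. Adam17, the TNF-releasing sheddase, was higher (0.37 ± 0.07, limma adjusted p = 0.0128). Mmp12, made by macrophages, was also higher, with values of 145, 26, 50, 41 and 79 in C57BL/6 and 316, 369, 184 and 160 in 129S1/SvImJ (2.06 ± 0.52, limma adjusted p = 0.0298). The Mmp12 and Adamts1 calls were each lost under 9 of 17 alternatives. Another 5 members were called, among them Adamts15, named after its values were seen because it went the other way on control diet (1.06 there, -0.71 after 12 weeks). The control diet mice also ate low fat diet for 12 weeks, and why these experiments differ was not tested. On control diet Adamts15 overlapped between C57BL/6 (65, 66, 91 and 128) and 129S1/SvImJ (224, 86, 207 and 244). That call was lost under 7 of 17 alternatives, and its 12-week call under 4 of 17. In all, 6 of the 19 Adamts and 3 of the 5 Adamtsl genes were called lower after 12 weeks, where 10.2% of all genes were. So were 2 of 23 Mmp, 1 of 4 Timp and 2 of 32 Adam genes. The Adamts count includes Adamts18, near the floor at 7, 7, 7, 4 and 5 in C57BL/6 and 4, 4, 2 and 2 in 129S1/SvImJ. The Adamts18 call was lost under 8 of 16 alternatives.

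The 12-week strain calls stand beside a shift of other cell markers. All 5 endothelial markers were lower in 129S1/SvImJ, with a summed value of 3670 to 4154 in C57BL/6 and 1518 to 2145 in 129S1/SvImJ. Macrophage markers summed to 2848 to 3675 and 3272 to 4752, and Trem2 and Itgax were the 2 of 7 called higher. On control diet 4 of the 5 endothelial markers were lower and Trem2 was the 1 macrophage marker called higher. The part of these cells in the members' differences was not tested. Library numbers run group by group in every experiment, so library order cannot be told apart from strain, drug or depot. Whether the numbers mark batches is not known.

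On control diet, Mmp11 was 94, 43, 34 and 50 in C57BL/6 and 35, 24, 19 and 19 in 129S1/SvImJ (-1.09 ± 0.25, limma adjusted p = 0.00416), with overlap of single libraries. Adamts5 (0.93), Mmp19 (0.51), Mmp24 (0.57) and Adamts2 (0.32) were higher, and Adamtsl1 (-0.81), Adamts10 (-0.52) and the alpha-secretase Adam10 (-0.45) lower, with a largest limma adjusted p of 0.0467. In a fit of the 2 control diet groups alone 5 members were called, and the Adamts2 call was lost under 12 of 17 alternatives. On rosiglitazone, Mmp28 was 266, 274, 394 and 374 in C57BL/6 and 159, 124, 146 and 187 in 129S1/SvImJ (-1.07 ± 0.14, limma adjusted p = 2.37e-05). Adam33, a relative of Adam12 and Adam19, was 110, 113, 111 and 95 against 38, 36, 52 and 27 (-1.50 ± 0.27, limma adjusted p = 0.00122). Mmp24 (0.62) was higher there, and Adamts3 (-1.24), Adamts10 (-0.49), Adamtsl1 (-1.20) and Adamtsl4 (-0.57) were lower, with a largest limma adjusted p of 0.0419.

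**Figure D4:**
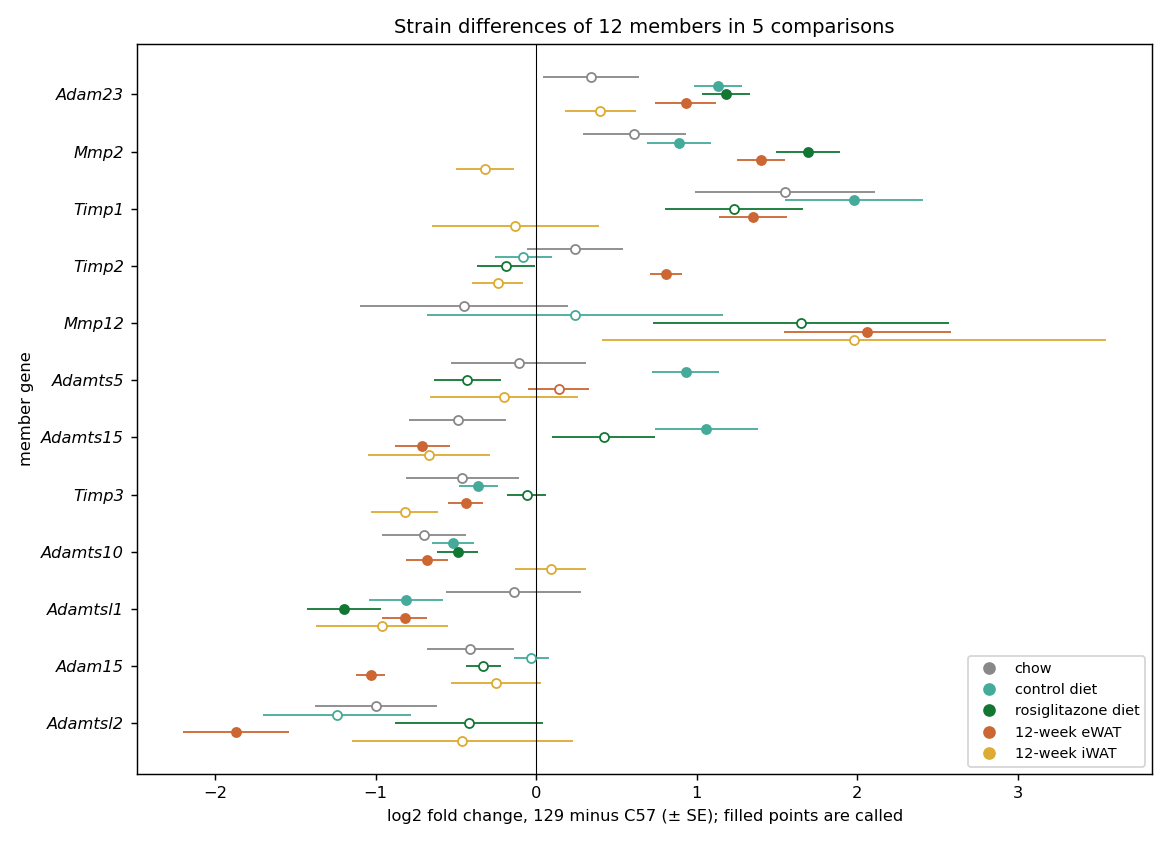
Log2 fold change of 129S1/SvImJ minus C57BL/6 (horizontal axis, bars are SE) of 12 members (vertical axis) in the 5 strain comparisons, with filled points where the gene was called. Adam23 and Mmp2 have filled points to the right of 0 in the control diet, rosiglitazone diet and 12-week eWAT comparisons, and Adamts10 and Adamtsl1 to the left.

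On chow, 1 member was called by limma, the protease Adamts6 (-1.0 ± 0.22, adjusted p = 0.0393), against 4.99% of all genes (2.39% higher and 2.61% lower), with 14 members and 3924 genes in all at an unadjusted p under 0.05. Adamts6 values were 64, 141, 76, 78 and 116 in C57BL/6 and 45, 41, 56, 46 and 39 in 129S1/SvImJ. Its call was lost when any 1 of 8 of the 10 libraries was left out (highest adjusted p over the settings 0.178). Without the 4 chow libraries with gland or epididymal markers (replicates 2 and 5 of C57BL/6 and 1 and 2 of 129S1/SvImJ), a choice made after seeing the data, 8 of the 83 members were called, against 10.8% of all genes in that fit. They were Timp4 (1.19 ± 0.11, adjusted p = 0.0141), Mmp2 (1.04 ± 0.12, 0.0204) and Mmp23 (0.67 ± 0.08, 0.0204), which were higher in 129S1/SvImJ, and Adam1a (-1.28), Adamts15 (-0.82), Adamts12 (-0.81), Adamts10 (-0.51) and Adam10 (-0.34), which were lower. With all libraries, Timp4 was 1172, 687, 1170, 1329 and 854 in C57BL/6 and 2298, 220, 3176, 2620 and 2626 in 129S1/SvImJ, and only replicate 2 of the latter lay below C57BL/6. Chow Mmp2 was 256, 352, 317, 315 and 300 against 521, 194, 620, 546 and 659, with the same single exception.

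Several Adam members were high in that library alone. Adam7, a gene of the epididymal epithelium, was 17, 81863, 42, 29 and 49 in 129S1/SvImJ chow replicates 1 to 5 and 17 to 69 in the 5 C57BL/6 chow libraries. Adam28 was 11852 there against 4 to 17 in the other 9. Adam2, Adam3, Adam5 and Adam32, sperm and testis members of the family, were 218, 646, 682 and 385, and at most 20 in every other chow library. The testis germ cell markers (4 genes) summed to 167 in that library, the highest of the 43, against a group median of 14, with none of the 4 at the floor. In C57BL/6 chow replicates 1 and 5 they summed to 92 and 99, and the part of either tissue in these Adam values was not tested. The 129S1/SvImJ chow mean of these 6 genes is set by that library, and without it Adam7 alone of them has a group mean of at least 20. Mmp7, matrilysin of glandular epithelium, was 1, 1234, 1, 7 and 1389 in C57BL/6 chow, and replicates 2 and 5 also held keratinocyte and gland markers (5 genes) at a sum of 1388 and 1521 against a group median of 56. Those markers were higher still in 129S1/SvImJ chow replicates 1 and 2, at 2074 and 4929, where Mmp7 was 19 and 68.

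Mmp3 and Mmp27, members of 1 gene cluster, were higher in iWAT than in eWAT in both strains, Mmp2 was higher in C57BL/6, and Adamts19, near the floor, was lower in both. Mmp3 (stromelysin-1), which cuts proteoglycans and activates other Mmp precursors, was 302, 247, 217 and 203 in C57BL/6 iWAT and 6, 3, 5, 5 and 6 in eWAT. In 129S1/SvImJ it was 76, 123, 187 and 113 in iWAT and 19, 11, 11 and 6 in eWAT. Every iWAT library was above every eWAT library, and the log2 fold changes were 5.35 ± 0.30 (limma adjusted p = 8.85e-08) and 3.33 ± 0.31 (3.59e-05). Mmp27 was 22, 19, 31 and 30 in C57BL/6 iWAT and 5, 4, 5, 5 and 7 in eWAT, and 31, 52, 95 and 55 against 8, 6, 9 and 3 in 129S1/SvImJ. It too separated the depots in both strains, by 2.08 ± 0.31 and 2.96 ± 0.33 (limma adjusted p = 7.68e-04 and 1.87e-04). The difference between strains within iWAT was not called for Mmp3 (-1.01, adjusted p = 0.207) or Mmp27 (1.08, adjusted p = 0.273).

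In the RefSeq annotation of GRCm38.p6 the Mmp cluster of chromosome 9 runs Mmp13, Mmp12, Mmp1b, Mmp3, Mmp1a, Mmp10, Mmp8, Mmp27, Mmp20, Mmp7. The 250 bases before the annotated starts of the 2 depot-separating genes are shown because both were higher in iWAT in both strains and both lie in 1 cluster. RefSeq gives them at chr9:7445572-7445821 (plus strand) for Mmp3 and chr9:7571146-7571395 (plus strand) for Mmp27. Capitals mark matches to the motif of the transcription factor AP-1, spelled TGANTCA. They also mark the TATA box, the element near which many transcripts begin, spelled TATAAA. Both strands were searched.
Mmp3: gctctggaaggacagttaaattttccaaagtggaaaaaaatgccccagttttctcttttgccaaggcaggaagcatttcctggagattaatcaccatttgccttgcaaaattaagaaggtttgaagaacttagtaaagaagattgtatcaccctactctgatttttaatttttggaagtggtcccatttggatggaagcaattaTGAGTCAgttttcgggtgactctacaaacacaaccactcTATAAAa
Mmp27: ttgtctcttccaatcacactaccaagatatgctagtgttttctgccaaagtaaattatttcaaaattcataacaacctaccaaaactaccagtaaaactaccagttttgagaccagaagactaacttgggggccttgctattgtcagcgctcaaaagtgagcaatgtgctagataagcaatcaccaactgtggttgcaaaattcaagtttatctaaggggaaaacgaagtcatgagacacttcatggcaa
Mmp3 has 1 match to each motif, and Mmp27 has none in this window. Over windows of 250 bases before to 50 after the start, TGANTCA occurs in 7.81% of all 32851 promoters and in 12 of the 57 promoters of the 52 members with an entry (21.1%). TATAAA occurs in 13.6% of all and 26.3% of the members' promoters. Most members with TGANTCA lie in the cluster above (Mmp10, Mmp12, Mmp13, Mmp1a, Mmp1b, Mmp20, Mmp3 and Mmp7), and the rest are Adam19, Adam1b, Adam25 and Adam29. The same cluster genes and Mmp8 have TATAAA, so neither share is spread evenly over the families. Mmp1a, Mmp1b, Mmp10, Mmp13 and Mmp20 had highest group means of at most 4.75. The direct repeat of AGGTCA with 1 base between its copies, to which PPARG is known to bind, occurs in 0.0396% of all and in 0 of the 57, and AGGTCA itself, which lies within that repeat, in 16.3% and 19.3%. A match is only a description of the letters.

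Mmp2 was 1097, 921, 1063 and 1063 in C57BL/6 iWAT and 593, 889, 1065 and 834 in 129S1/SvImJ iWAT. Against the eWAT values given above, C57BL/6 iWAT lay 2.28 ± 0.16 higher (limma adjusted p = 1.04e-06), and 129S1/SvImJ iWAT 0.56 ± 0.17 higher, which was not called (adjusted p = 0.165). The difference between the 2 depot effects was -1.73 ± 0.23 and passed (limma adjusted p = 0.00272). In iWAT the strains overlapped in Mmp2 (-0.32, adjusted p = 0.572).

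Timp2 also differed by depot in a way that depended on strain. It was 2218, 1478, 1951 and 1684 in C57BL/6 iWAT, above all C57BL/6 eWAT libraries (0.51 ± 0.13, limma adjusted p = 0.0175). In 129S1/SvImJ iWAT it was 1285, 1675, 1765 and 1474, below all eWAT libraries of that strain, a difference of -0.54 that was not called (adjusted p = 0.0703). The interaction was -1.05 ± 0.18 (limma adjusted p = 0.0114). For Mmp3 it was -2.03 ± 0.43 (limma adjusted p = 0.0257), though its call was lost without the 3 iWAT libraries with high lymphocyte markers, and the highest adjusted p over the settings was 0.0869. These 3 were the members called in the interaction, all with a negative sign, against 3.14% of all genes (1.43% higher and 1.7% lower). Timp1 in 129S1/SvImJ was 3, 19, 14 and 6 in iWAT against 36, 38, 20 and 21 in eWAT (-1.58, adjusted p = 0.0701, not called).

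Between the depots, 17 members were called in C57BL/6 (9 higher and 8 lower in iWAT, 20.5% against 13.1% of all genes, of which 5.27% were higher and 7.81% lower) and 5 in 129S1/SvImJ (4 higher and 1 lower, 6.02% against 1.72% of all genes, with 0.525% higher and 1.19% lower). Adam19 (meltrin beta), which sheds neuregulin, was higher in iWAT in both. Its values were 255, 255, 191 and 280 against 144, 132, 148, 138 and 147 in C57BL/6 (0.77 ± 0.14, limma adjusted p = 0.00257). In 129S1/SvImJ they were 311, 191, 267 and 240 against 181, 156, 129 and 154 (0.69 ± 0.15, limma adjusted p = 0.0307). The depots did not overlap, but in a fit of the 2 129S1/SvImJ groups alone the latter adjusted p was 0.228. Without the 3 iWAT libraries with high lymphocyte markers the 129S1/SvImJ adjusted p from limma was 0.222. In all, that call was lost under 9 of 18 alternatives.

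Adamts19 was the mirror image. It was 1 in all 4 C57BL/6 iWAT libraries, the floor of the table, and 7, 10, 7, 10 and 11 in eWAT. In 129S1/SvImJ it was 1, 2, 1 and 2 in iWAT and 23, 20, 20 and 11 in eWAT. The log2 fold changes of -2.30 ± 0.21 and -2.95 ± 0.22 (limma adjusted p = 1.06e-05 and 2.75e-06) depend on the floor. In C57BL/6 iWAT replicates 1 to 4 the lowest member values above the floor were 8, 10, 11 and 5. C57BL/6 eWAT values of 7 to 11 are near these, so the size of the C57BL/6 difference is not resolved. Its group means here are under 20, and it was named after its values were seen.

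Mmp9 in 129S1/SvImJ was 43, 36, 76 and 80 in iWAT and 11, 11, 23 and 10 in eWAT (2.02 ± 0.38, limma adjusted p = 0.0138). Its call was lost without the libraries with high lymphocyte markers (adjusted p = 0.114). In C57BL/6, Adam15 was 656, 730, 871 and 473 in iWAT against at least 1240 in eWAT (-1.03 ± 0.19, limma adjusted p = 0.00311). Adam22 (0.62), Adamts6 (1.09), Adamts12 (0.60) and the membrane-bound Mmp14 (0.53), which activates pro-MMP2, were higher in C57BL/6 iWAT, and Mmp24 (-0.91), Adamtsl2 (-1.83) and Adamts7 (-1.2) lower, with a largest limma adjusted p of 0.0471. Of 19 alternatives, Adamts7 and Adamts12 each lost their call under 10, Mmp14 under 9, Adamtsl2 under 7, Adamts6 under 6, and Adam22 and Mmp24 under 4 each. Adamts7 and Adamtsl2 overlapped between the depots. The other 3 members called between the depots in C57BL/6, all lower, had means under 20 in both groups. Mmp12 varied too much to be called (-2.41 in C57BL/6, adjusted p = 0.176, and -2.49 in 129S1/SvImJ, adjusted p = 0.371).

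**Figure D5:**
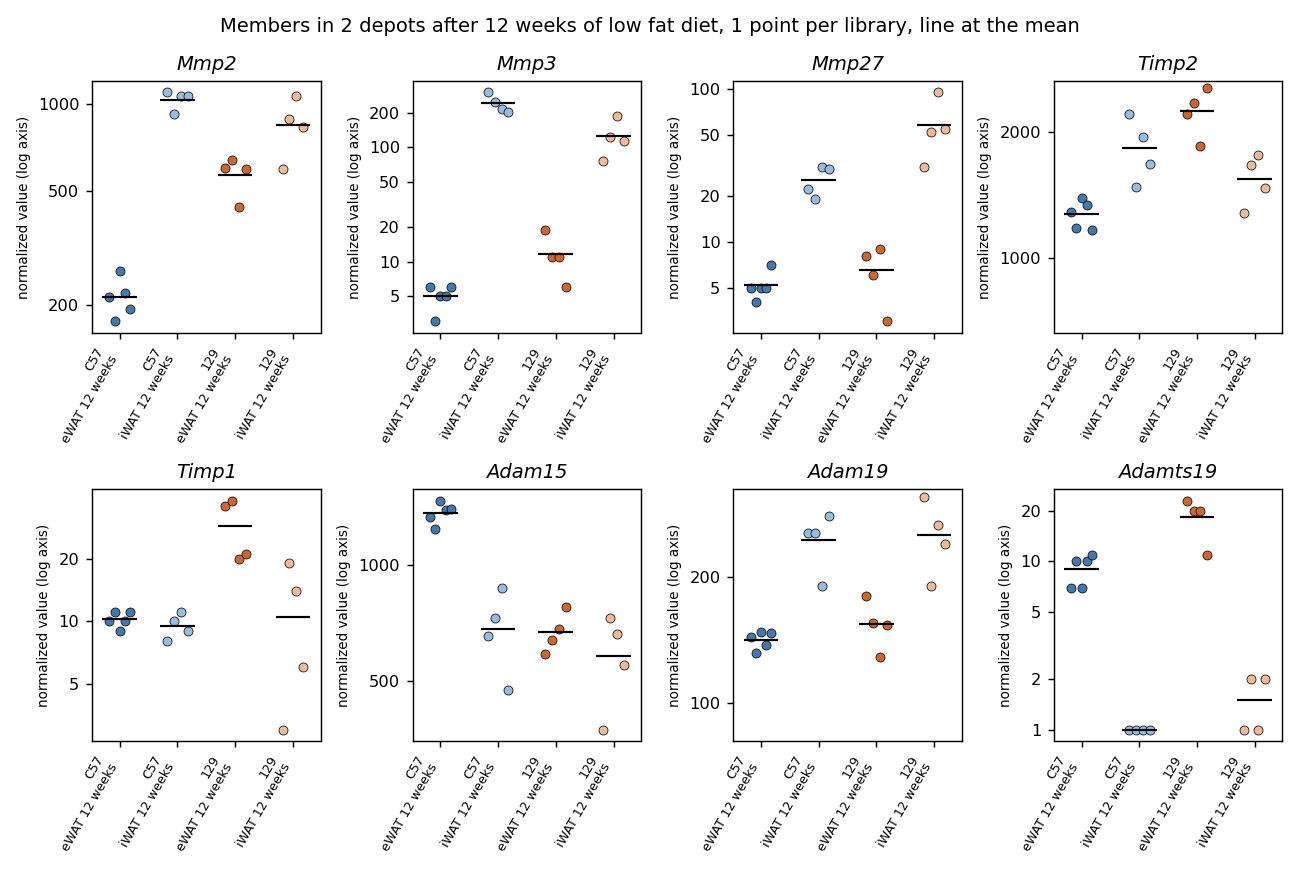
Normalized values (vertical axis, logarithmic) of 8 members in eWAT and iWAT of both strains after 12 weeks of low fat diet, with 1 point per library and a line at the mean. Mmp3 and Mmp27 lie higher and Adamts19 lower in iWAT of both strains, while Mmp2 and Timp2 of the strains are apart in eWAT and overlap in iWAT.

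Mesothelial markers (5 genes), of the lining that covers visceral fat, summed to 1345 to 2444 in the 12-week eWAT libraries and to 5 to 26 in iWAT, with Msln and Wt1 at 1 or 2 in every iWAT library. All 5 were called lower in iWAT in both strains. Progenitor and fibroblast markers summed to 8199 to 10593 in C57BL/6 eWAT and 10480 to 14991 in iWAT, and to 7746 to 9792 and 9524 to 10927 in 129S1/SvImJ. Dpt was called higher in iWAT in both strains, with Pdgfra and Ly6a also higher in C57BL/6. The part of these cells in the depot differences of the members was not tested, and the library numbers of the depots too lie in separate runs.

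Between the strains in iWAT, Mmp21 was the 1 member called (1.08 ± 0.08, limma adjusted p = 0.00235), against 1.69% of all genes (1.13% higher and 0.56% lower), with 9 members and 2875 of all genes at an unadjusted p under 0.05. Its call was lost without the 3 libraries with high lymphocyte markers, and its highest adjusted p over the settings was 0.26, with the replicate block. It was 1, 1, 1 and 1 in C57BL/6 and 3, 4, 3 and 3 in 129S1/SvImJ, at or just above the floor. Values of 3 and 4 lie below the lowest member values seen above the floor in the C57BL/6 libraries. Timp3 was 3048, 3319, 2995 and 3036 in C57BL/6 and 1134, 2218, 2006 and 1901 in 129S1/SvImJ without overlap and was not called (adjusted p = 0.172).

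Some members varied within a group more than between groups. Mmp12 on control diet in C57BL/6 was 284, 70, 581 and 31, and Adam8, a leukocyte sheddase, was 144, 36, 247 and 67 in the same libraries. The 2 libraries high in one were high in the other. On rosiglitazone Mmp12 was 20, 308, 109 and 59 in C57BL/6, and Adam8 34, 166, 71 and 56, with replicate 2 highest and replicate 1 lowest in both.

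Of the 58 members with a mean of at least 20, 15 were called in none of the 11 comparisons. They include Adam9, a sheddase with 478 to 1100 in the 43 libraries, Adam8, Mmp23 and Adamts4. Of the 25 lower members 3 were called at least once (Mmp8, Mmp21 and Adamts18), and 46 of all 83 were. Adam1a and Adam1b, Adam6a and Adam6b, Adam26a and Adam26b, and Mmp1a and Mmp1b are close relatives by name, and whether reads were split between the members of a pair was not tested. Timp1, Timp3 and Timp4 lie within the synapsin genes Syn1, Syn3 and Syn2, and the sources used here do not say how reads of overlapping genes were counted.

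Other genes of matrix turnover were followed as a list of 37. The 4 called on rosiglitazone in C57BL/6 (2.43% of all genes) were all lower, among them the cathepsin Ctsl (-0.70 ± 0.13, limma adjusted p = 0.00515) and the endocytic receptor Lrp1 (-0.53 ± 0.11, 0.011), which clears proteases bound to inhibitors. In 129S1/SvImJ (5.51% of all genes called) 2 rose and 5 fell, among them Ctsl (-0.88 ± 0.13, limma adjusted p = 2.62e-04), Lrp1 (-0.49 ± 0.11, 0.00898) and the serine protease Htra1 (-0.64 ± 0.12, 0.00232). The proprotein convertase Pcsk6 was lower in 129S1/SvImJ on control diet (-1.19), on rosiglitazone (-1.65), and after 12 weeks in eWAT (-1.78) and iWAT (-2.73), with a largest limma adjusted p of 0.042. After 12 weeks in eWAT (21.7% of all genes called) 6 of the 37 were higher and 5 lower, among them the Mmp inhibitor Reck (0.57 ± 0.07, limma adjusted p = 0.00158) and Htra3 (1.24 ± 0.13, 0.00105), which were higher, and the Adamts-like Papln (-1.01 ± 0.11, 0.0012), which was lower. Between the depots in C57BL/6 (13.1% of all genes called) 5 were higher and 6 lower, with the procollagen enhancer Pcolce (1.2 ± 0.18, limma adjusted p = 8.53e-04) and the cathepsin Ctsb (0.61 ± 0.09, 4.96e-04) higher in iWAT and Thsd4 (-1.73 ± 0.22, 2.12e-04) and Papln (-1.44 ± 0.20, 4.61e-04) lower. On control diet (17.5% of all genes called) 6 were higher and 3 lower in 129S1/SvImJ, including Pcolce (1.03) and Ctsl (0.72), and on rosiglitazone diet (10.7% of all genes called) 3 were higher and 1 lower. None was called between the depots in 129S1/SvImJ or on chow by limma, where 10 and 6 of the 37 had an unadjusted p under 0.05.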

How the data were processed

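The submitters deposited 5 tables of mouse RNA-seq with 28644 transcripts. HOMER and the genome build mm9 are named, with no role, in the submitters' processing notes. The authors' values are a score per library, a whole number with a floor of 1, normalized before deposit. The sources used here give neither the counting options nor the normalization step. Libraries of an experiment share their highest value, so these are not raw counts and depth is unknown. That value is common to the 12-week eWAT and iWAT tables and to the 2 drug tables, while chow has its own, and no level was compared across these 3 sets. Log2 fold changes and p-values of the authors' own comparisons stand beside them in the deposited tables, by a method the sources used here do not give.

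Of the labels' 49 samples, 5 F1 libraries and 1 nascent RNA sample were not analysed here. For each symbol the transcript with the highest total was kept. On the scale log2(value + 1), limma 3.58.1 (R 4.3.3) was fitted (trend and robust settings, 1 mean per group), with Benjamini-Hochberg adjustment over 22869 symbols, two-sided, threshold 0.05, and the fits were tested on simulated data. Chow, 12-week eWAT and 12-week iWAT strain differences were each fitted on their own libraries, the drug comparisons on all 16 drug libraries, and the depot comparisons on all 12-week libraries. Alternatives were pseudocounts of 0 and 5, a filter at 20, no trend, array weights, sums over transcripts, median centring, a replicate block, only the 2 groups compared, and each library left out. Named per comparison were called members with a mean of 20 or more in a compared group, up to 12 by smallest p, and 16 fixed members. The members and lists were chosen with earlier results of these data known. GENCODE transcript lengths were found for 81 of 83 members.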

Additional observations from a re-analysis of the deposited data

Results flagged for a closer look

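Of 96 groups of values checked for a single library far from the others, 6 stood out, and chance gives about 1 in 20. In 129S1/SvImJ chow replicate 2, Adam7 was 81863 (others 17 to 49), Adam28 was 11852 (others 5 to 12) and Mmp7 was 68 (others 1 to 19). Adam33 was 95 in C57BL/6 rosiglitazone replicate 4 (others 110 to 113), Mmp9 was 23 in 129S1/SvImJ 12-week eWAT replicate 3 (others 10 to 11), and Mmp21 was 4 in 129S1/SvImJ iWAT replicate 2 (others 3).

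The depot difference (iWAT minus eWAT) differed between the strains by the interaction test for Mmp2 (-1.73), Mmp3 (-2.03) and Timp2 (-1.05), each as the 129S1/SvImJ difference minus the C57BL/6 difference. For these 3 genes the strain difference was larger in eWAT than in iWAT for Mmp2 and Timp2, while Mmp3 had the larger fold difference between depots in C57BL/6, where its eWAT values are near the floor.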

How the results depend on the processing

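Of 92 calls of a member in a comparison, 27 held under every alternative run, 65 were lost under at least 1, and 0 changed direction. The calls that held include Adam12, Adam23, Adamts2, Adamts5, Adamtsl3 and Timp4 on rosiglitazone in 129S1/SvImJ, Mmp2, Mmp3 and Mmp27 between the depots in C57BL/6, and the Mmp2 interaction. Of 209 counts under alternatives, 172 stayed within 1.5 times the count reported.

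The counts of members called that moved further, with the reported count first, were these. On chow (1) the filter at 20 gave 2, array weights 14, leaving out 129S1/SvImJ chow replicates 1 and 2 gave 7, and also leaving out C57BL/6 chow replicates 2 and 5 gave 8. On control diet (15) the 2 groups alone gave 5. For the drug in C57BL/6 (11) the fit without trend gave 6 and the 2 groups alone 0. In the drug interaction (0) the filter gave 1 and array weights 2, and in 12-week iWAT (1) 0 and 2. Between the depots in 129S1/SvImJ (5), leaving out the libraries with high lymphocyte markers gave 3. Leaving out 1 library at a time gave 0 to 6 on chow (6 without 129S1/SvImJ replicate 2), 9 to 17 on control diet, 5 to 10 and 7 to 10 for the drug in C57BL/6 and 129S1/SvImJ, 0 to 2 for its interaction and 7 to 11 on rosiglitazone diet. The libraries that moved these counts by over 1.5 times were C57BL/6 control replicate 3 and 129S1/SvImJ control replicate 1 (9 each on control diet), and C57BL/6 control replicate 2 and rosiglitazone replicates 1, 3 and 4 (7, 7, 7 and 5 for the drug in C57BL/6). It gave 14 to 20 in 12-week eWAT, 1 in iWAT, 10 to 19 and 3 to 6 between the depots in C57BL/6 and 129S1/SvImJ, and 3 to 4 for their interaction. Between the depots, C57BL/6 eWAT replicates 2 and 3 (11 each), C57BL/6 iWAT replicate 2 (10) and 129S1/SvImJ iWAT replicate 4 (3) did so.

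Whether same-numbered libraries of the depots came from the same mice is not known, and the main fits treated libraries as unpaired. Deviations from the group mean correlated at -0.396 to 0.428 between same-numbered libraries. In no comparison did every such pair exceed 0.1. Weak correlations cannot show that the libraries were unpaired. With the replicate block the counts were 0 on chow, 2 in 12-week eWAT, 0 in 12-week iWAT, 9 between the depots in C57BL/6 and 1 in the strain by depot interaction. The cause of these movements was not tested. Depth is unknown, so no limit of detection could be given for members at the floor.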
